A study of Mus musculus with 38 samples.

Results

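The livers of calorie-restricted mice that missed a meal were compared with the livers of calorie-restricted mice that had been fed, across all measured messenger RNAs. The members of the comparison were the 3 libraries labelled missed meal (CRmm) and the 3 labelled fed (CRfed), 6 of the 38 libraries of the series. Both groups were female wild-type C57BL/6 mice under calorie restriction, sampled at zeitgeber time 18 (the hour counted from lights on). They shared genotype, sex, diet and clock time, and differed by the meal. The labelled ages were 42, 43 and 44 months for CRmm and 39, 40 and 41 months for CRfed. They rise by 1 with the order of the samples throughout the series, so age and meal cannot be told apart if these ages are right. The degree of restriction, the hour of the meal and the time since the previous meal are not given in the sources used here. The other groups used here were fasted (F) female wild-type C57BL/6 mice and freely fed, ad libitum (AL) mice of the same strain and sex, with 3 libraries each at 14 h and at 22 h. Their labelled ages at 14 h were 26 to 28 months for F and 20 to 22 months for AL. At 22 h they were 36 to 38 months for F and 29 to 31 months for AL. Fasting and labelled age thus cannot be told apart either. At 6 h, F (3 libraries) and AL (2 libraries) also differed in labelled age, with F the older. Their 6 h levels are given for some genes and were not tested. Nothing in the labels says that the replicates of a group were separate animals, so each p-value measures the spread between these samples.

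A liver that has just received food takes up glucose, stores it as glycogen and turns the excess into fatty acids and sterols, a programme driven by insulin through the transcription factors SREBP-1c and SREBP-2. When food stays away, the liver instead burns fatty acids that arrive from adipose tissue, makes ketone bodies and glucose, and releases signals such as FGF21 and IGFBP1. The nuclear receptor PPARA, the FOXO factors, glucocorticoids and glucagon drive much of that response. In mice fed once a day on a restricted diet, the liver passes from one state to the other each day.

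The 6 libraries held 20899835, 22789518 and 21676107 expected counts in CRmm 1 to 3 and 30152277, 23429506 and 21780817 in CRfed 1 to 3. Expression is in CPM, which divides a gene's counts by the TMM-normalised depth of its library. Pairs of libraries correlated at 0.977 to 0.981 within CRmm, 0.963 to 0.978 within CRfed and 0.942 to 0.959 between the groups (Pearson's r of log CPM across genes). Hepatocyte markers, among them albumin and transthyretin, summed to 123600 to 139100 CPM in CRmm and 119200 to 156000 CPM in CRfed. Transcripts of other tissues differed between libraries. Skeletal muscle markers, 14 genes listed after their values had been seen, summed to 2.46, 2.89 and 1.12 CPM in CRmm 1 to 3, against 391.2, 185.2 and 2.50 CPM in CRfed 1 to 3, so that CRfed 1 and CRfed 2 carried muscle transcripts. Markers of red blood cell precursors, largely the globin genes, summed to 10410, 4672 and 14420 CPM in CRmm, against 2342, 947.1 and 1747 CPM in CRfed. CRfed 3 stood apart from the other fed libraries in some lists: folding genes of the endoplasmic reticulum summed to 4960, 4066 and 4187 CPM in CRmm, against 5914, 5437 and 8904 CPM in CRfed.

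**Figure D1:**
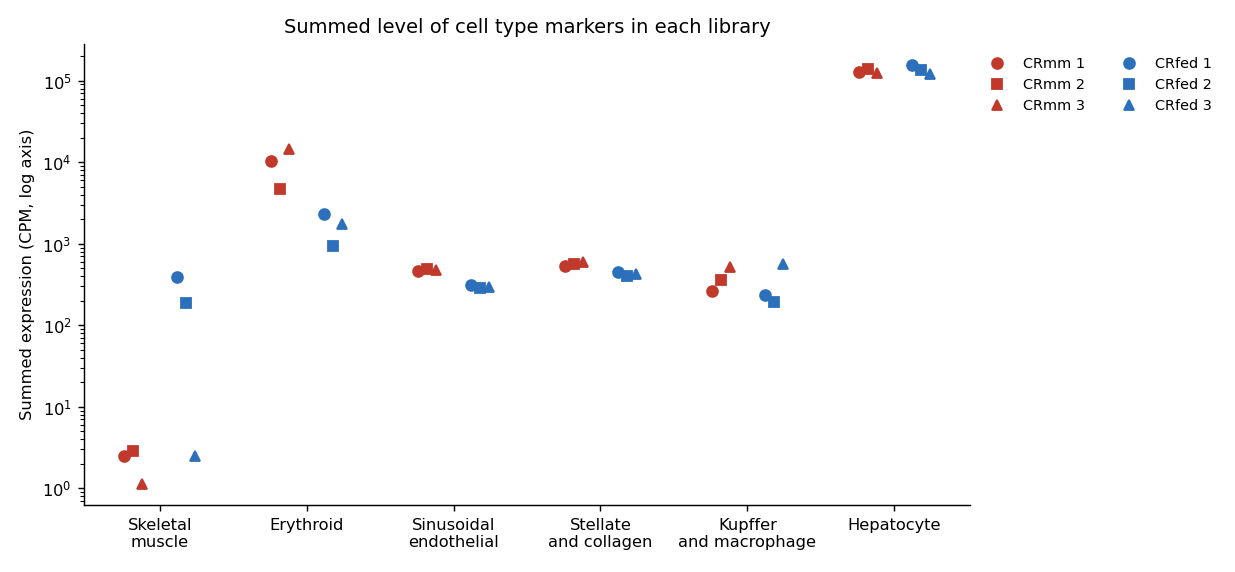
Summed expression in CPM (log axis) of 6 marker lists in each of the 3 CRmm (red) and 3 CRfed (blue) libraries, with marker shapes for the replicate number. The skeletal muscle sum is 391.2 and 185.2 CPM in CRfed 1 and CRfed 2 and at most 2.89 CPM in the other 4 libraries, and the erythroid sum is higher in every CRmm library than in every CRfed library.

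Of the 13786 tested genes, 1719 (12.5%) differed between the missed-meal and the fed livers: 874 (6.34%) were higher in the missed-meal livers and 845 (6.13%) were lower, by the quasi-likelihood F test of edgeR with a Benjamini-Hochberg adjusted p under 0.05. The values of all 3 CRmm libraries lay above those of all 3 CRfed libraries for 17.5% of the tested genes and below them for 17% of the tested genes. Genes known from the unfed liver were among the largest rises, and genes of fat synthesis were among the largest falls. Each fold change below is the log2 ratio of CRmm to CRfed with its standard error. Each call was repeated with every one of the 6 libraries left out in turn; 555 of the 1719 calls (332 higher and 223 lower) were made in every one of these 6 fits.

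Igfbp1 (chr11:7197782-7202546 on GRCm38), which encodes a liver-made binding protein that holds back insulin-like growth factors, was at 617, 295 and 475 CPM in the missed-meal livers, against 6.22, 7.34 and 13.7 CPM in the fed livers. Every missed-meal library was far above every fed one, and the fold change was 5.67 ± 1.08, adjusted p = 0.000934. The means were 462 ± 161 CPM in CRmm and 9.1 ± 4.06 CPM in CRfed (SD, n = 3 each). Fgf21 (chr7:45613886-45615490), the gene of a fasting hormone of the liver, was at 36.9, 11.7 and 22.0 CPM after the missed meal, against 0.431, 0.344 and 1.27 CPM with the meal. The groups stood wide apart, with a fold change of 5.12 ± 0.87, adjusted p = 0.000267. Nlrp12, an innate immune regulator, was at 146, 77.6 and 123 CPM in CRmm, against 6.54, 7.26 and 4.46 CPM in CRfed and had the smallest p among the 12 largest rises (4.24 ± 0.49, adjusted p = 3.36e-06).

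The other genes among the 12 largest rises included Adra2a, the alpha-2A adrenergic receptor (6.44 ± 1.36, adjusted p = 0.00308), and Ppp1r3g, which directs protein phosphatase 1 to glycogen (5.97 ± 1.20, adjusted p = 0.00141). Rgs16 encodes an inhibitor of G protein signalling (4.53 ± 1.17, adjusted p = 0.0103). Pdk4 switches off pyruvate oxidation (3.56 ± 0.88, adjusted p = 0.00757), and Lpin1 is a phosphatidate phosphatase (3.41 ± 0.72, adjusted p = 0.00218). Zbed5 (3.53 ± 0.51, adjusted p = 4.41e-05), the stress gene Gadd45b (3.49 ± 0.72, adjusted p = 0.00188) and Lrrc15 (3.47 ± 0.85, adjusted p = 0.00724) belonged to them too. All 12 were called in each of the 6 fits that left out a library. Txnip (chr3:96557957-96561883), which restrains glucose uptake and was picked after its values were seen for the smallest p of all higher genes, was at 291, 185 and 214 CPM in the missed-meal livers, against 30.1, 27.7 and 34.2 CPM in the fed livers. Its fold change was 2.91 ± 0.32, adjusted p = 2.42e-06. The water and glycerol channel gene Aqp3, also picked after its values were seen, had 126 counts over the 3 missed-meal libraries and none over the 3 fed libraries, at least 50.64-fold higher when the fed count is set at a floor of 3 counts over the group.

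**Figure D2:**
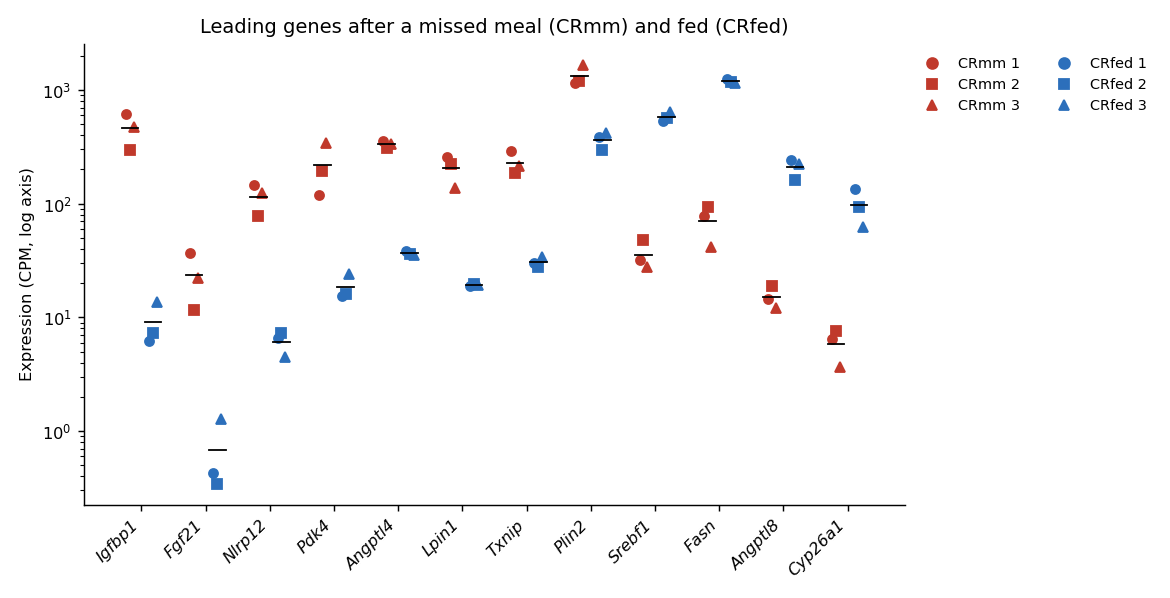
Expression in CPM (log axis) of 12 genes in the 3 CRmm libraries (red, left) and the 3 CRfed libraries (blue, right), with a bar at the group mean and marker shapes for the replicate number. The first 8 genes are higher in every CRmm library than in any CRfed library and the last 4 are lower, with Igfbp1 at 295 to 617 CPM in CRmm and 6.22 to 13.7 CPM in CRfed.

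Srebf1 (chr11:60199089-60222581), the gene of SREBP-1c, was at 31.7, 47.9 and 27.5 CPM in the missed-meal livers, against 535, 564 and 641 CPM in the fed livers. No library of either group came near the other group, and the fold change was -4.02 ± 0.43, adjusted p = 1.76e-06. The means were 35.7 ± 10.8 CPM in CRmm and 579.9 ± 54.8 CPM in CRfed (SD, n = 3 each). Fasn (chr11:120805846-120824547), the fatty acid synthase, was at 77.3, 93.5 and 41.6 CPM after the missed meal, against 1259, 1181 and 1144 CPM with the meal. It was as clearly apart, with a fold change of -4.08 ± 0.52, adjusted p = 1.05e-05. Cyp26a1, which breaks down retinoic acid, was at 6.4, 7.53 and 3.65 CPM in CRmm, against 134, 92.9 and 62.2 CPM in CRfed (-4.04 ± 0.53, adjusted p = 1.45e-05). Atp2b2, a plasma membrane calcium pump, was at 1.04, 1.1 and 0.243 CPM in CRmm, against 15.5, 22.9 and 16.1 CPM in CRfed (-4.51 ± 0.73, adjusted p = 0.00018). Both were called in each of the 6 fits that left out a library.

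Of the other 8 of the 12 largest falls, 5 were skeletal muscle genes: Myh2, Myl1, Ckm, Acta1 and Tnnc2. Myh2, a fast muscle myosin, had no count in the missed-meal libraries and 814 counts in the fed ones, at least 225.2-fold lower at the floor of 3 counts over the group. Its values were 0, 0 and 0 CPM in CRmm, against 19.4, 11.6 and 0.137 CPM in CRfed. The fed values of all 5 came almost wholly from CRfed 1 and CRfed 2. The call of Myh2 was lost without CRmm 1, CRmm 2, CRmm 3, CRfed 1 or CRfed 2 (adjusted p up to 0.105), and that of Ckm without CRmm 1, CRmm 2, CRmm 3 or CRfed 1 (adjusted p up to 0.118). The calls of Acta1, Myl1 and Tnnc2 were each lost without CRmm 1, CRmm 3 or CRfed 1, and those of Acta1 and Myl1 also without CRmm 2. With the replicate number as a block the adjusted p of Ckm was 0.0501. The remaining 3 were Pnpla3, described below with fat synthesis, Chrna4 and A1bg. Chrna4, a nicotinic receptor subunit, was at 0.0547, 0.367 and 0.438 CPM in CRmm, against 5.21, 2.96 and 14.6 CPM in CRfed (-4.66 ± 1.39, adjusted p = 0.0245). The call of Chrna4 was lost without CRmm 1, CRmm 2, CRmm 3 or CRfed 3 (adjusted p up to 0.102). A1bg, a plasma glycoprotein gene, was at 6.73, 36.2 and 1.85 CPM in CRmm, against 287, 266 and 187 CPM in CRfed (-4.04 ± 1.06, adjusted p = 0.0117). The call of A1bg was lost without CRmm 1 or CRmm 3 (adjusted p up to 0.0701).

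The gene programme that rose most broadly was the burning of fat. Of the 34 PPARA targets tested, 29 rose, against 6.34% of all tested genes, and the median fold change of the list was 1.60, against -0.01 over all tested genes. The libraries of the 2 groups did not overlap for 33 of the 34, all of them with CRmm above, against 17.5% of all tested genes. The number that rose lay between 20 and 28 when single libraries were left out and was lowest without CRfed 3. Ppara itself, which encodes the receptor, was at 96.2, 143 and 110.4 CPM in the missed-meal livers, against 19.7, 37.0 and 26.5 CPM in the fed livers (2.07 ± 0.35, adjusted p = 0.000232; picked after its values were seen). Acadvl, Acot3, Cpt2, Fabp1 and Mgll were the 5 members that did not pass.

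Ehhadh, the bifunctional enzyme of peroxisomal oxidation, was at 1578, 1631 and 3191 CPM after the missed meal, against 376, 388 and 390.1 CPM with the meal. CRmm 3 was the highest library, and even the lowest missed-meal library was well above the fed ones (2.47 ± 0.34, adjusted p = 2.5e-05). Angptl4, a secreted inhibitor of lipoprotein lipase, was at 358, 309 and 338 CPM in CRmm, against 38.1, 36.4 and 35.5 CPM in CRfed, with little spread in either group (3.19 ± 0.53, adjusted p = 0.0002). Acot2, a mitochondrial acyl-CoA thioesterase, was at 139.9, 129.9 and 311 CPM in CRmm, against 24.6, 23.1 and 17.6 CPM in CRfed (3.15 ± 0.52, adjusted p = 0.0002); some of its reads may be shared with the near-identical Acot1 and other members of its family.

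In the mitochondrial part of the pathway 9 of 16 beta-oxidation genes rose, with a median of 0.70. Acadm, the medium-chain acyl-CoA dehydrogenase, was at 1045, 662 and 860.2 CPM in the missed-meal livers, against 466, 359.6 and 295 CPM in the fed livers (1.20 ± 0.25, adjusted p = 0.00218). Hadhb (1.21 ± 0.25, adjusted p = 0.0022), Decr1 (0.88 ± 0.20, adjusted p = 0.00355) and Eci2 (1.02 ± 0.24, adjusted p = 0.00617), which carry out later steps or deal with unsaturated chains, rose by similar amounts. The count of the list fell to 6 without CRmm 1 or CRfed 3.

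Of the 6 genes of the carnitine shuttle, which brings fatty acids into mitochondria, 5 rose, with a median of 1.38 (3 without CRmm 3, CRfed 2 or CRfed 3). Cpt1a, the liver form of its gatekeeper enzyme, was at 607, 584 and 554 CPM after the missed meal, against 212, 253 and 113 CPM with the meal. The fold change was 1.59 ± 0.30, adjusted p = 0.000898, with CRfed 3 the lowest library. The carnitine transporter Slc22a5 was at 187, 169 and 242 CPM in CRmm, against 44.4, 47.4 and 24.1 CPM in CRfed (2.37 ± 0.39, adjusted p = 0.0002), and Slc25a20, the carrier of the inner membrane, had a fold change of 1.12 ± 0.25, adjusted p = 0.00294. Cpt1b, the muscle form, was at 12.6, 7.26 and 20.3 CPM in CRmm, against 4.03, 1.89 and 0.91 CPM in CRfed (2.54 ± 0.73, adjusted p = 0.0201). The call of Cpt1b was lost without CRmm 3, CRfed 2 or CRfed 3 (adjusted p up to 0.109). Acsl1, which activates fatty acids to acyl-CoA and was picked after its values were seen, was at 1391, 1517 and 1712 CPM in CRmm, against 527, 625 and 614 CPM in CRfed (1.39 ± 0.24, adjusted p = 0.000325).

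Among 18 genes of peroxisomal oxidation and the Cyp4a hydroxylases 13 rose, with a median of 1.30 and 7 without CRfed 3. Pex11a, which makes peroxisomes divide, was at 464, 373 and 538 CPM in the missed-meal livers, against 81.1, 87.7 and 77.8 CPM in the fed livers (2.48 ± 0.43, adjusted p = 0.000341). Crot, which hands peroxisomal products on as carnitine esters, was at 686, 759 and 1197 CPM in CRmm, against 233, 238 and 322 CPM in CRfed (1.74 ± 0.32, adjusted p = 0.000608), and the thioesterase Acot8 had a fold change of 1.29 ± 0.23, adjusted p = 0.000355. Reads of the Cyp4a genes may be shared between them.

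Ketone body synthesis followed with 3 of 7 genes, median 0.77. Acat1, the mitochondrial thiolase that acts first, had a fold change of 0.92 ± 0.24, adjusted p = 0.0103, and its call was lost without CRmm 1 (adjusted p up to 0.0669), so that 1 gene of the list was left without CRmm 1.

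**Figure D3:**
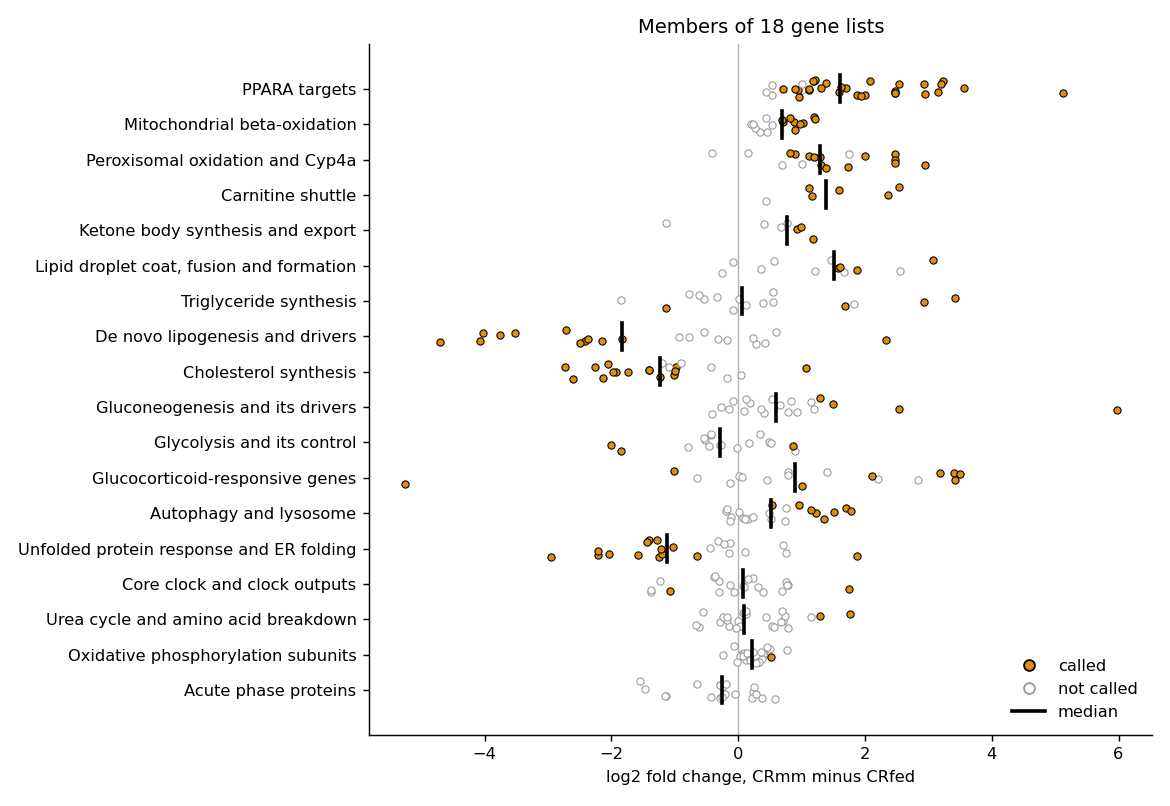
Log2 fold change (CRmm minus CRfed) of the tested members of 18 gene lists, with filled points for called genes, open points for the rest and a bar at the list median. PPARA targets sit to the right with a median of 1.60, and the lipogenesis and cholesterol lists sit to the left with medians of -1.84 and -1.23.

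Genes of fat storage in droplets rose in part. Of 12 genes of the droplet coat, its fusion and its formation, 4 rose, with a median of 1.52. Plin4 and Plin5 were among the 8 that did not pass. Plin2 (chr4:86648386-86670060), the main coat protein of hepatocyte droplets, was at 1150, 1211 and 1662 CPM in the missed-meal livers, against 383, 297 and 417 CPM in the fed livers. The lowest missed-meal library held over 2 times the level of the highest fed one (1.87 ± 0.27, adjusted p = 3.19e-05). The means were 1341 ± 279.9 CPM in CRmm and 366 ± 61.5 CPM in CRfed (SD, n = 3 each). Cidec, which fuses droplets into larger ones, was at 66.4, 12.9 and 50.3 CPM after the missed meal, against 12.9, 1.25 and 1.0 CPM with the meal. The spread was wide, since CRmm 2 and CRfed 1 had nearly the same value, and the fold change was 3.07 ± 0.81, adjusted p = 0.0123. The call of Cidec was lost without CRfed 2 or CRfed 3 (adjusted p up to 0.0634). Fitm2, which helps droplets form, was at 172, 164 and 194 CPM in CRmm, against 62.0, 70.5 and 46.3 CPM in CRfed (1.57 ± 0.29, adjusted p = 0.000733). Hilpda, an inhibitor of the lipase ATGL, had a fold change of 1.61 ± 0.41, adjusted p = 0.0102. The call of Hilpda was lost without CRmm 3 or CRfed 2 (adjusted p up to 0.066). With CRfed 2 left out, 2 of the 12 were called.

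Among 16 genes of triglyceride synthesis 3 rose and 1 fell, with a median of 0.06. Among all tested genes, 6.34% rose and 6.13% fell. Gk, the glycerol kinase, was at 336, 222 and 364 CPM in CRmm, against 110.3, 109 and 68.4 CPM in CRfed (1.68 ± 0.24, adjusted p = 3.57e-05). Lpin2 was at 419, 533 and 598 CPM in CRmm, against 59.6, 75.1 and 67.6 CPM in CRfed (2.94 ± 0.43, adjusted p = 4.86e-05). Its relative Lpin1, which also makes diacylglycerol, was at 256, 224 and 138 CPM in CRmm, against 19.0, 19.8 and 19.3 CPM in CRfed. These 3 were called with any 1 of the 6 libraries left out. Agpat1 fell (-1.14 ± 0.32, adjusted p = 0.0173), a call lost without CRmm 2, CRmm 3 or CRfed 2 (adjusted p up to 0.0762).

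Of 11 lipolysis genes 1 rose and 2 fell, with a median of 0.15, against 6.34% higher and 6.13% lower among all tested genes. Ces1d, a carboxylesterase of the hepatocyte, had a fold change of 0.86 ± 0.29, adjusted p = 0.0484, and its call was lost without CRmm 1, CRmm 2, CRmm 3, CRfed 1, CRfed 2 or CRfed 3 (adjusted p up to 0.185) and with the replicate block (adjusted p = 0.0631). Lpl, the lipoprotein lipase of muscle, fat and other tissues, was at 6.4, 7.26 and 14.8 CPM in CRmm, against 60.4, 19.97 and 20.2 CPM in CRfed (-1.82 ± 0.39, adjusted p = 0.00236); CRfed 1, which held most muscle transcripts, was its highest library, and the call was lost without CRfed 1 (adjusted p up to 0.0637). The part of muscle RNA in this result was not tested.

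The gene programme that fell furthest was de novo lipogenesis. Of 21 genes 11 fell, against 6.13% of all tested genes, 1 rose, and the median was -1.84. Between 9 and 11 fell when single libraries were left out. Acly, which makes cytosolic acetyl-CoA, was at 65.3, 87.6 and 65.8 CPM in the missed-meal livers, against 358, 316 and 498 CPM in the fed livers (-2.42 ± 0.35, adjusted p = 4.76e-05). Acaca, the carboxylase of the committed step, was at 31.6, 34.1 and 23.7 CPM after the missed meal, against 123, 129 and 145 CPM with the meal (-2.15 ± 0.27, adjusted p = 9.63e-06). Both were low in all 3 missed-meal libraries and high in all 3 fed ones.

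Further along the same pathway, Elovl6, which lengthens the product of Fasn, was at 29.6, 27.5 and 20.6 CPM in CRmm, against 208, 235 and 454 CPM in CRfed (-3.53 ± 0.56, adjusted p = 0.000131). Thrsp, a partner of the synthetic enzymes, was at 111, 39.3 and 25.1 CPM in CRmm, against 767, 455 and 1152 CPM in CRfed (-3.76 ± 0.78, adjusted p = 0.00178). These 2 were picked after their values were seen. Scd1, the desaturase that makes oleate, was at 345, 1244 and 669.8 CPM in the missed-meal livers, against 2324, 2888 and 7545 CPM in the fed livers. CRfed 3 alone held more than 2 times the level of either other fed library, and the fold change was -2.50 ± 0.67, adjusted p = 0.0128. The call of Scd1 was lost without CRmm 1, CRmm 3 or CRfed 3 (adjusted p up to 0.0954). Pnpla3, a lipase and SREBP-1c target best known for its link to fatty liver in people, was at 0.274, 0.965 and 0.778 CPM in CRmm, against 6.0, 4.55 and 43.7 CPM in CRfed. CRfed 3 again stood apart, and the fold change was -4.71 ± 1.25, adjusted p = 0.0126. The call of Pnpla3 was lost without CRmm 1, CRmm 3 or CRfed 3 (adjusted p up to 0.133). Insig2, the exception that rose, encodes a protein that holds SREBP in the endoplasmic reticulum. It was at 908, 410.2 and 528 CPM after the missed meal, against 133, 108 and 128 CPM with the meal (2.32 ± 0.36, adjusted p = 9.14e-05; picked after its values were seen).

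Genes of cholesterol synthesis fell as well. Of 21 genes 14 fell and 1, Ggps1, rose, and the median was -1.23; the number that fell was 8 without CRmm 2, CRmm 3 or CRfed 1. Mvd, the mevalonate decarboxylase, was at 6.67, 6.8 and 7.0 CPM in the missed-meal livers, against 55.8, 37.6 and 43.2 CPM in the fed livers. The missed-meal values were almost equal to each other and far below the fed ones (-2.74 ± 0.51, adjusted p = 0.000665). Sqle, the squalene epoxidase, was at 38.2, 22.6 and 25.7 CPM after the missed meal, against 228, 184 and 115 CPM with the meal (-2.61 ± 0.53, adjusted p = 0.00149). Fdps (-2.05 ± 0.39, adjusted p = 0.000938), Lss (-1.74 ± 0.34, adjusted p = 0.00111) and Dhcr7 (-2.13 ± 0.42, adjusted p = 0.00117) were called in each of the 6 fits.

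Of 12 genes of sterol sensing and transport 4 fell and 1 rose, with a median of -0.30. Among all tested genes, 6.13% fell and 6.34% rose. Mylip, a target of the sterol receptor LXR, was the gene that rose, at 19.1, 16.8 and 17.1 CPM after the missed meal, against 3.74, 5.33 and 5.96 CPM with the meal (1.82 ± 0.31, adjusted p = 0.000232). Insig1 had a fold change of -1.42 ± 0.38, adjusted p = 0.0134, with the call lost without CRmm 3 or CRfed 3 (adjusted p up to 0.0891). The number that fell dropped as low as 1 when a single library was left out.

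Of 17 bile acid genes 2 rose and 2 fell, with a median of -0.02. The shares called among all tested genes were 6.34% higher and 6.13% lower. So few calls among 17 genes are not a result about the list. Cyp7a1, the rate-limiting enzyme of the main pathway, was at 95.2, 21.7 and 15.5 CPM in the missed-meal livers, against 245, 379 and 163 CPM in the fed livers. CRmm 1 was nearer to the fed libraries than the other 2 were (-2.57 ± 0.72, adjusted p = 0.017). The call of Cyp7a1 was lost without CRmm 2, CRmm 3 or CRfed 2 (adjusted p up to 0.108). Cyp8b1, which makes cholic acid, was at 602, 229 and 325 CPM after the missed meal, against 129.6, 159 and 28.9 CPM with the meal; it ran the other way, with CRfed 3 the lowest library (1.86 ± 0.59, adjusted p = 0.0355). The call of Cyp8b1 was lost without CRmm 1, CRmm 3, CRfed 1 or CRfed 3 (adjusted p up to 0.162). Cyp2c70, which makes the muricholic acids of mice, was at 151, 168 and 149.5 CPM in CRmm, against 416, 354 and 534 CPM in CRfed (-1.48 ± 0.34, adjusted p = 0.00509) and was called in each of the 6 fits. The uptake carrier Slco1b2 had a fold change of 0.74 ± 0.22, adjusted p = 0.0222. The call of Slco1b2 was lost without CRmm 1, CRfed 2 or CRfed 3 (adjusted p up to 0.13).

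In glucose production 4 of 20 genes rose, against 6.34% of all tested genes, with a median of 0.60. Between 2 and 5 rose when single libraries were left out. Pck1 (chr2:173153048-173159273), which commits carbon to glucose, was at 5202, 3998 and 4062 CPM in the missed-meal livers, against 1182, 970.5 and 138 CPM in the fed livers. CRfed 3 was far below the other fed libraries, and every missed-meal library was above all fed ones (2.53 ± 0.64, adjusted p = 0.00904). Without CRfed 3 the fold change was 2.04 (adjusted p = 0.0441). G6pc, the last enzyme of the pathway, was at 703, 611 and 559 CPM after the missed meal, against 389, 373 and 286 CPM with the meal. The libraries did not overlap, but the fold change of 0.84 ± 0.45 did not pass (adjusted p = 0.245), nor did that of the coactivator Ppargc1a (1.20 ± 0.41, adjusted p = 0.0534). The other rises were Cebpb (1.50 ± 0.43, adjusted p = 0.0189), whose call was lost without CRmm 1, CRfed 2 or CRfed 3 (adjusted p up to 0.0791), and Ppp1r3g. The serine dehydratase Sds also rose (1.30 ± 0.36, adjusted p = 0.017), a call lost without CRmm 1, CRfed 2 or CRfed 3 (adjusted p up to 0.0958).

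Of 17 genes of glycolysis and its control 2 fell and 1 rose, with a median of -0.28, against 6.13% lower and 6.34% higher among all tested genes. With single libraries left out, 1 or 2 fell and at most 1 rose. Pklr, the liver pyruvate kinase, was at 94.9, 115 and 65.1 CPM in the missed-meal livers, against 244, 281 and 465 CPM in the fed livers (-1.85 ± 0.43, adjusted p = 0.00458). Ldha, the gene that rose, had a fold change of 0.86 ± 0.27, adjusted p = 0.0341. The call of Ldha was lost without CRmm 1, CRmm 3, CRfed 1, CRfed 2 or CRfed 3 (adjusted p up to 0.154). In the pyruvate dehydrogenase list 2 of 11 rose, against 6.34% of all tested genes. They were Pdk4, at 119, 195 and 339.9 CPM in CRmm, against 15.4, 16.1 and 24.1 CPM in CRfed, and the phosphatase Pdp2 (0.85 ± 0.21, adjusted p = 0.00785). The call of Pdp2 was lost without CRfed 3 (adjusted p up to 0.0595).

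Of 15 glycogen genes 3 fell and 1 rose, with a median of -0.23, against 6.13% lower and 6.34% higher among all tested genes. Ppp1r3b and Ppp1r3c, like Ppp1r3g, bring protein phosphatase 1 to glycogen, and they moved in the other direction. Ppp1r3b was at 231, 239.5 and 140.2 CPM in the missed-meal livers, against 512, 673 and 570.5 CPM in the fed livers (-1.52 ± 0.38, adjusted p = 0.00889). The call of Ppp1r3b was lost without CRmm 3 (adjusted p up to 0.0687). Ppp1r3g was at 20.7, 20.1 and 40.5 CPM after the missed meal, against 0.359, 0.515 and 0.409 CPM with the meal. Ppp1r3c had a fold change of -1.73 ± 0.58, adjusted p = 0.0486, a call lost without CRmm 1, CRmm 2, CRmm 3, CRfed 1, CRfed 2 or CRfed 3 (adjusted p up to 0.199) and with the replicate block (adjusted p = 0.0674).

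Of 19 genes of insulin signalling itself 1 rose and 2 fell, with a median of 0.41. The shares called among all tested genes were 6.34% higher and 6.13% lower, and so few calls among 19 genes are not a result about the list. All missed-meal libraries lay above all fed ones for 9 of the 19, against 17.5% of all tested genes. They lay below them for 3, against 17%. Without CRmm 3 none of the list fell in the fit of edgeR. The gene that rose was Igfbp1. Pik3r1, the regulatory subunit of the insulin-activated lipid kinase, was at 47.5, 43.9 and 38.5 CPM in CRmm, against 89.8, 101 and 70.3 CPM in CRfed (-1.01 ± 0.25, adjusted p = 0.00807). The call of Pik3r1 was lost without CRmm 3 (adjusted p up to 0.0517). Irs2, the adaptor below the insulin receptor, was at 49.8, 57.8 and 34.5 CPM in CRmm, against 12.6, 17.2 and 17.9 CPM in CRfed; the libraries did not overlap, and the fold change of 1.58 ± 0.57 did not pass (adjusted p = 0.0659). In the growth hormone and IGF axis 1 of 14 rose and 1 fell, against 6.34% higher and 6.13% lower among all tested genes. All missed-meal libraries lay above all fed ones for 7 of the 14 and below them for 1. Igf1 was at 377, 536 and 384 CPM in CRmm, against 384, 428 and 526 CPM in CRfed, with overlapping groups and a fold change of -0.04 ± 0.27 (adjusted p = 0.942). Igfals, which keeps IGF-1 in the blood, had a fold change of -0.92 ± 0.30, adjusted p = 0.0409. The call of Igfals was lost without CRmm 1, CRmm 3, CRfed 1, CRfed 2 or CRfed 3 (adjusted p up to 0.185).

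Hormones secreted by the liver gave 4 rises and 1 fall among 17 genes, against 6.34% higher and 6.13% lower among all tested genes. Fgf21, Angptl4, Igfbp1 and Fst rose. Angptl8, which is made after a meal and turns fat away from muscle, was the one that fell, at 14.4, 18.7 and 12.2 CPM in the missed-meal livers, against 242, 160.1 and 223 CPM in the fed livers. It was lower in every missed-meal library by a wide margin (-3.78 ± 0.75, adjusted p = 0.00128) and was called in each of the 6 fits.

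Glucocorticoid-responsive genes gave 6 rises and 2 falls among 18, with a median of 0.90. Klf9, a transcription factor induced by the hormone, was at 91.7, 111 and 104 CPM in the missed-meal livers, against 18.4, 30.9 and 22.0 CPM in the fed livers (2.10 ± 0.37, adjusted p = 0.000406). Zbtb16 was at 25.5, 28.5 and 25.0 CPM after the missed meal, against 1.73, 3.74 and 2.05 CPM with the meal (3.40 ± 0.72, adjusted p = 0.00241), and Gadd45b was at 23.5, 16.8 and 25.7 CPM in CRmm, against 1.98, 2.4 and 1.46 CPM in CRfed. These 3 and Lpin1 were called in each of the 6 fits, and Cdkn1a and Dusp1 rose as well. Pik3r1 and Sult1e1 were the 2 that fell.

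Of 15 p53 targets and growth arrest genes 6 rose and 1 fell, with a median of 0.45; without CRmm 1 or CRfed 1, 2 rose. Cdkn1a, the cell cycle inhibitor p21, was at 122, 56.3 and 84.7 CPM in the missed-meal livers, against 5.5, 6.96 and 16.4 CPM in the fed livers (3.19 ± 0.89, adjusted p = 0.017). The call of Cdkn1a was lost without CRmm 1, CRfed 1 or CRfed 2 (adjusted p up to 0.0883). Trp53inp1 had a fold change of 1.94 ± 0.53, adjusted p = 0.0152. The call of Trp53inp1 was lost without CRmm 1 or CRfed 1 (adjusted p up to 0.0743). Of 16 cell cycle genes 1 fell, near the 6.13% called lower among all tested genes. It was Ccnd1, the cyclin that drives hepatocytes into the cycle. Ccnd1 was at 11.0, 20.4 and 10.6 CPM after the missed meal, against 67.2, 42.4 and 51.9 CPM with the meal (-1.94 ± 0.42, adjusted p = 0.00262). It was called in each of the 6 fits.

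The chaperones and folding enzymes of the endoplasmic reticulum, which the unfolded protein response controls, were lower in the missed-meal livers. Of 22 genes 13 fell and 1 rose, with a median of -1.12. The count depended on several libraries: 2 fell without CRfed 3, 5 without CRmm 3 and 8 without CRmm 2. Hspa5, the master chaperone BiP, was at 389.8, 282 and 262 CPM in the missed-meal livers, against 772, 601 and 1409 CPM in the fed livers. CRfed 3 was the highest library, and the other fed libraries were still above every missed-meal library (-1.57 ± 0.44, adjusted p = 0.0167). The call of Hspa5 was lost without CRmm 2, CRmm 3 or CRfed 3 (adjusted p up to 0.118). Sdf2l1, a partner of BiP, was at 5.42, 5.28 and 3.7 CPM after the missed meal, against 11.7, 9.84 and 90.6 CPM with the meal. CRfed 3 stood far above all other libraries (-2.96 ± 0.69, adjusted p = 0.00514), and without it the fold change was -1.17 (adjusted p = 0.223).

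Manf, a secreted protein of the stressed reticulum, was at 34.0, 17.5 and 18.6 CPM in CRmm, against 73.4, 50.2 and 199.7 CPM in CRfed (-2.21 ± 0.47, adjusted p = 0.00247). Xbp1, a driver of the response, was at 115, 93.4 and 86.2 CPM in CRmm, against 174, 171 and 259 CPM in CRfed (-1.03 ± 0.24, adjusted p = 0.00455). These 2 were called in each of the 6 fits. Herpud1, which helps clear misfolded proteins, was the one that rose, at 547, 499.6 and 506 CPM in the missed-meal livers, against 157, 131 and 137 CPM in the fed livers. Its values hardly varied within either group (1.87 ± 0.34, adjusted p = 0.000519). Creld2 was at 26.0, 16.7 and 18.2 CPM in CRmm, against 33.8, 22.2 and 227 CPM in CRfed, with overlapping groups (-2.22 ± 0.72, adjusted p = 0.0388). The call of Creld2 was lost without CRmm 1, CRmm 2, CRmm 3 or CRfed 3 (adjusted p up to 0.72), and its adjusted p with the replicate block was 0.229.

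**Figure D4:**
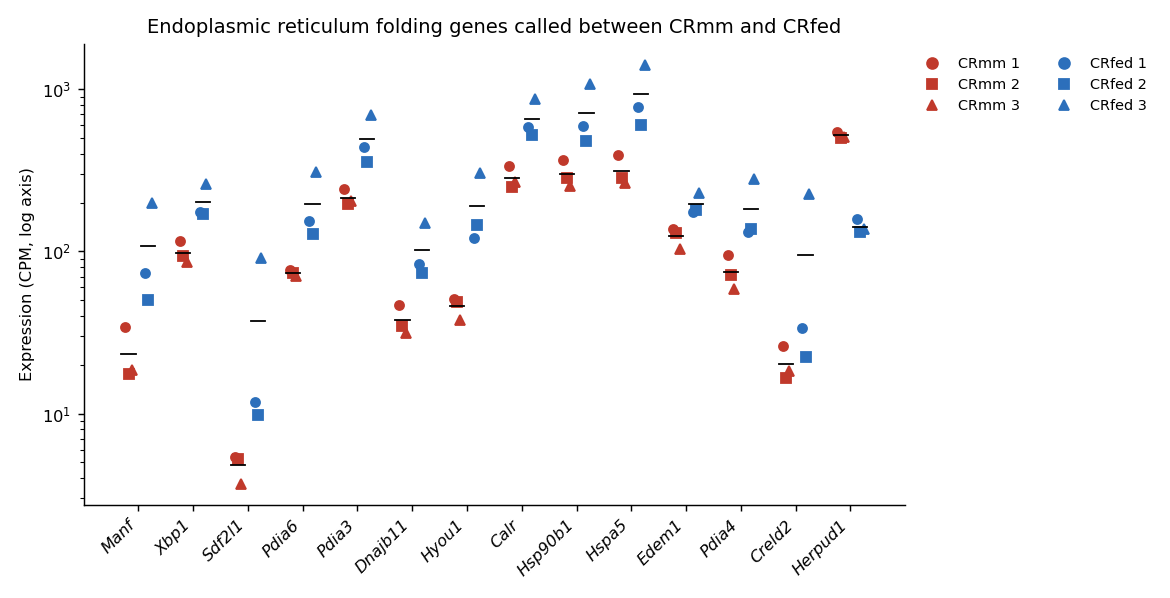
Expression in CPM (log axis) of the 14 called genes of endoplasmic reticulum folding in the 3 CRmm (red, left) and 3 CRfed (blue, right) libraries, with a bar at the group mean and marker shapes for the replicate number. CRfed 3 (blue triangle) is the highest library for each of the 13 genes that fell, and Herpud1 is higher in every CRmm library.

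The promoters of these genes are known for the endoplasmic reticulum stress response element, which ATF6 and NF-Y bind, and its letters were looked for in the RefSeq promoters of GRCm38.p6 (250 bases before to 50 bases after each gene start). The motif was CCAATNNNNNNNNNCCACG on either strand. It occurred in 39 of 32851 windows (0.119%), in 19 of the 10604 tested genes that had a window (0.179%), and in 8 of 661 genes that were lower after the missed meal (1.21%). It occurred in 5 of the 11 genes of the folding list that fell and had a window (45.5%) and in 7 of all 19 list members with a window (36.8%); Canx and Dnajc3, the other 2, did not pass the test. Another 3 motifs were searched on both strands in the same windows. The PPAR element, a pair of AGGNCA repeats with 1 base between them, was in 0 of the 21 PPARA targets that rose and had a window, in 1 of all 26 targets with one, and in 0.358% of tested genes. The sterol element TCACNCCAC was in 1 of 11 cholesterol synthesis genes that fell, in 0 of 9 lipogenesis genes that fell, and in 1.47% of tested genes. The FOXO letters GTAAACA were in 0 of 3 glucose production genes that rose, in 2 of 15 insulin signalling genes, neither of them called, and in 3.25% of tested genes. A match is a run of letters and no measured site, and no match says only that these letters are not in this window. The 6 matches in these 5 promoters are printed with 30 bases on each side, 5′ to 3′ on the strand of the gene, with the matched letters in capitals, so that the shared ends can be compared; Hsp90b1 holds the motif in both orientations.
Hspa5 (chr2:34771995-34772073, plus strand): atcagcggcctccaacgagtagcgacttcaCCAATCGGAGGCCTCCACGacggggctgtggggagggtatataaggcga
Hsp90b1 (chr10:86705503-86705686, minus strand): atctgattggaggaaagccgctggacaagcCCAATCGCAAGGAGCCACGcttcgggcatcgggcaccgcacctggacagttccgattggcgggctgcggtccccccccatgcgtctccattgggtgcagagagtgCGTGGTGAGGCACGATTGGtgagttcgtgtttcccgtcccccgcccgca
Calr (chr8:84847045-84847123, minus strand): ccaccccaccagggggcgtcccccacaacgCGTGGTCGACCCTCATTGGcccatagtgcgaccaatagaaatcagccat
Creld2 (chr15:88819490-88819568, plus strand): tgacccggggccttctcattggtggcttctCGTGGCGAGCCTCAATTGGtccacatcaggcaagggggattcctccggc
Pdia6 (chr12:17266461-17266539, plus strand): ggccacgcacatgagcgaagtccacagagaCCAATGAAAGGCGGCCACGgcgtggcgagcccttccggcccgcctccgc

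Beside these sequences, Hsp90b1, the reticulum form of HSP90, was at 367, 282 and 251 CPM in CRmm, against 592, 476 and 1070 CPM in CRfed (-1.25 ± 0.34, adjusted p = 0.0145). The call of Hsp90b1 was lost without CRmm 2, CRmm 3 or CRfed 3 (adjusted p up to 0.136). Calr, a lectin chaperone, was at 335, 249.5 and 266 CPM in CRmm, against 580.1, 523 and 865 CPM in CRfed (-1.21 ± 0.32, adjusted p = 0.0111). The call of Calr was lost without CRmm 2, CRmm 3 or CRfed 3 (adjusted p up to 0.0716). Pdia6, a disulphide isomerase, was at 77.2, 73.9 and 70.7 CPM in CRmm, against 154, 128 and 308 CPM in CRfed (-1.41 ± 0.34, adjusted p = 0.00645). The call of Pdia6 was lost without CRfed 3 (adjusted p up to 0.0821). In all of them CRfed 3 was the highest library.

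Autophagy and lysosome genes rose in part, with 8 of 21 called higher and a median of 0.52; the number was 7 or 8 with any 1 of the 6 libraries left out. Gabarapl1, which coats the growing autophagosome, was at 416, 599.5 and 567 CPM in the missed-meal livers, against 152, 189 and 119 CPM in the fed livers. The groups were well apart (1.78 ± 0.23, adjusted p = 9.63e-06). Map1lc3b, the LC3 protein of the same membrane, was at 268, 216 and 270.4 CPM after the missed meal, against 125, 99.8 and 98.9 CPM with the meal (1.22 ± 0.20, adjusted p = 0.000224). Bnip3l, a receptor that sends mitochondria to autophagy, was at 208, 147 and 210.3 CPM in CRmm, against 57.7, 68.7 and 71.9 CPM in CRfed (1.51 ± 0.23, adjusted p = 0.000103). Ulk1, the kinase that starts the process, was at 71.4, 76.6 and 53.7 CPM in CRmm, against 18.7, 23.5 and 20.2 CPM in CRfed (1.69 ± 0.36, adjusted p = 0.00249).

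Of 19 genes of mTOR, AMPK and amino acid sensing 3 rose and 2 fell, with a median of 0.38, against 6.34% higher and 6.13% lower among all tested genes. Without CRmm 2, 1 rose and 1 fell. The number that rose was 2 without CRmm 3, CRfed 1 or CRfed 3, and the number that fell was 1 without CRmm 3 or CRfed 2. Sesn2, a leucine sensor that holds mTORC1 back, had a fold change of 1.07 ± 0.29, adjusted p = 0.0136. The call of Sesn2 was lost without CRmm 2 (adjusted p up to 0.055). Prkab1, an AMPK subunit, was at 23.6, 25.9 and 22.6 CPM in CRmm, against 44.0, 43.5 and 36.4 CPM in CRfed (-0.78 ± 0.17, adjusted p = 0.00258), and its partner Prkag2 had a fold change of -0.64 ± 0.17, adjusted p = 0.0152. The call of Prkag2 was lost without CRmm 2, CRmm 3 or CRfed 2 (adjusted p up to 0.116). Of 18 ATF4-linked genes 2 rose, Sesn2 and Ppp1r15a, against 6.34% of all tested genes. Ppp1r15a, which restarts translation after stress, was at 16.1, 14.1 and 16.4 CPM in CRmm, against 5.93, 6.53 and 6.05 CPM in CRfed (1.33 ± 0.28, adjusted p = 0.00235).

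Of 23 ribosome biogenesis genes 3 fell, against 6.13% of all tested genes, with a median of -0.32. All missed-meal libraries lay below all fed ones for 11 of the 23, against 17% of all tested genes. Utp20, a processing factor of ribosomal RNA, was at 6.02, 8.18 and 7.88 CPM in the missed-meal livers, against 14.8, 14.6 and 14.3 CPM in the fed livers (-0.98 ± 0.23, adjusted p = 0.00558) and was called in each of the 6 fits. Heatr1 (-0.84 ± 0.23, adjusted p = 0.015) was lost without CRmm 1, CRmm 3 or CRfed 2 (adjusted p up to 0.094), and Rrp12 (-1.18 ± 0.37, adjusted p = 0.033) was lost without CRmm 1, CRmm 2, CRmm 3, CRfed 1, CRfed 2 or CRfed 3 (adjusted p up to 0.0958).

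Breakdown of amino acids gave 2 rises among 27 genes, near the 6.34% called higher among all tested genes, with a median of 0.09. Tdo2, which opens the ring of tryptophan, was at 3516, 1776 and 3572 CPM after the missed meal, against 1126, 956 and 541 CPM with the meal (1.76 ± 0.32, adjusted p = 0.000622), and Sds was the other. All missed-meal libraries lay above all fed ones for 10 of the 27, against 17.5% of all tested genes. They lay below them for 1, against 17%. At an unadjusted p under 0.05 by edgeR, 8 of the 27 were higher and 2 lower. DESeq2 called 5 higher and 1 lower. In the methionine cycle 3 of 14 rose, against 6.34% of all tested genes. Csad, of taurine synthesis, had a fold change of 2.38 ± 0.68, adjusted p = 0.0187. The call of Csad was lost without CRmm 2, CRmm 3, CRfed 1 or CRfed 3 (adjusted p up to 0.0721). Mat2a had a fold change of 0.90 ± 0.26, adjusted p = 0.0201, a call lost without CRmm 3, CRfed 1 or CRfed 2 (adjusted p up to 0.109); no gene of the list was called in the fit of edgeR without CRmm 3 or CRfed 1.

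Clock genes were compared between groups with the same zeitgeber time. Of 21 clock genes and outputs 1 rose and 1 fell, with a median of 0.07, a number near the 12.5% called among all tested genes. All missed-meal libraries lay above all fed ones for 7 of the 21, against 17.5% of all tested genes. They lay below them for 4, against 17%. Nr1d2, a repressor of the clock, was at 50.3, 55.9 and 77.3 CPM in the missed-meal livers, against 23.5, 24.5 and 6.87 CPM in the fed livers. CRfed 3 was much lower than the other fed libraries, and the fold change was 1.74 ± 0.51, adjusted p = 0.023. The call of Nr1d2 was lost without CRmm 3 or CRfed 3 (adjusted p up to 0.121). Its relative Nr1d1 was at 4.92, 5.33 and 6.47 CPM in CRmm, against 4.67, 4.25 and 1.36 CPM in CRfed, with a fold change of 0.69 ± 0.80 that did not pass (adjusted p = 0.646). Bhlhe40, which also answers to feeding, was at 57.2, 93.9 and 58.6 CPM after the missed meal, against 144, 152 and 145 CPM with the meal (-1.07 ± 0.30, adjusted p = 0.0176). The call of Bhlhe40 was lost without CRmm 1, CRmm 3 or CRfed 2 (adjusted p up to 0.0994).

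Arntl, the positive arm of the clock, was at 16.4, 13.4 and 14.6 CPM in CRmm, against 18.4, 19.8 and 16.8 CPM in CRfed. The values were close, and the fold change was -0.31 ± 0.65 (adjusted p = 0.822). Per2 was at 20.6, 30.3 and 16.7 CPM in CRmm, against 45.8, 62.8 and 50.7 CPM in CRfed; the libraries did not overlap, and the fold change of -1.24 ± 0.59 did not pass (adjusted p = 0.173). Per1 (0.78 ± 0.65, adjusted p = 0.494) and Dbp (-0.38 ± 0.89, adjusted p = 0.844) did not pass either, and for both CRfed 3 was the lowest library. With standard errors of 0.59 to 0.89 on Per1, Per2, Nr1d1 and Dbp, a log2 change of 1 could not pass in this model. These errors rest on the spread of each gene in all 38 libraries. In the fit to the 6 libraries alone, 5 named genes without a call in the 38-library model were called.

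Among liver genes of drug metabolism 3 of 21 cytochrome P450 genes rose and 1, Cyp26a1, fell. The shares among all tested genes were 6.34% higher and 6.13% lower. Cyp2b10, a target of the receptor CAR, was at 216, 68.8 and 23.9 CPM in the missed-meal livers, against 15.6, 14.0 and 14.5 CPM in the fed livers. CRmm 1 was the highest library (2.80 ± 0.65, adjusted p = 0.00517). The call of Cyp2b10 was lost without CRmm 1 (adjusted p up to 0.0865). Cyp3a11 had a fold change of 1.30 ± 0.34, adjusted p = 0.011, a call lost without CRmm 3 (adjusted p up to 0.0837), and Cyp2e1 one of 0.85 ± 0.24, adjusted p = 0.017. The call of Cyp2e1 was lost without CRmm 2, CRmm 3 or CRfed 3 (adjusted p up to 0.0825). Of 24 subunits of oxidative phosphorylation 1 rose, against 6.34% of all tested genes. It was Uqcrc2 (0.52 ± 0.16, adjusted p = 0.0294). The call of Uqcrc2 was lost without CRmm 1, CRmm 3, CRfed 1, CRfed 2 or CRfed 3 (adjusted p up to 0.152).

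Among defence genes the counts were near the 6.13% called lower among all tested genes. Of 22 interferon-responsive genes 2 fell, with a list median of -0.54. One of them was Oasl1, at 7.11, 2.71 and 2.09 CPM in CRmm, against 17.5, 16.1 and 31.0 CPM in CRfed (-2.45 ± 0.47, adjusted p = 0.000985). At an unadjusted p under 0.05 by edgeR, 7 of the 22 interferon-responsive genes were lower and 0 higher. Of 14 NRF2 targets 1 fell, Srxn1 (-0.75 ± 0.24, adjusted p = 0.041). The call of Srxn1 was lost without CRmm 1, CRmm 2, CRmm 3, CRfed 1, CRfed 2 or CRfed 3 (adjusted p up to 0.154). In the list of metallothioneins and zinc transporter families 1 of 9 genes fell, Slc30a10 (-1.27 ± 0.35, adjusted p = 0.0166). The metallothioneins Mt1 and Mt2 were not called. The call of Slc30a10 was lost without CRmm 3 or CRfed 3 (adjusted p up to 0.119). Among 20 acute phase genes and 16 heat shock genes edgeR, DESeq2 and limma called none, and 1 in each list was lower at an unadjusted p under 0.05.

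A pair of cytoskeleton genes fell that belong to no list and were picked after their values were seen. Actb, the beta-actin often used as a constant, was at 278, 281 and 289.9 CPM in the missed-meal livers, against 1223, 1272 and 899 CPM in the fed livers (-2.00 ± 0.27, adjusted p = 1.45e-05). Actg1, the gamma form, was at 117, 79.2 and 77.2 CPM after the missed meal, against 795, 861 and 323 CPM with the meal. CRfed 3 was the lowest fed library and still above every missed-meal library (-2.85 ± 0.32, adjusted p = 2.42e-06). Car3, a carbonic anhydrase of hepatocytes and fat cells, was at 178, 172 and 276 CPM in CRmm, against 1412, 1365 and 1636 CPM in CRfed (-2.82 ± 0.46, adjusted p = 0.0002). In the other direction, Slc25a47, a mitochondrial carrier found mainly in liver, was at 1753, 1362 and 1616 CPM in CRmm, against 219, 197 and 221 CPM in CRfed (2.89 ± 0.43, adjusted p = 5.47e-05). Klhl24 was at 47.5, 71.0 and 62.4 CPM in CRmm, against 7.76, 6.57 and 5.82 CPM in CRfed (3.16 ± 0.50, adjusted p = 0.000118).

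Markers of other cells of the liver were counted in the same way; in bulk tissue, fewer cells of a type and less RNA per cell cannot be told apart. Sinusoidal endothelial markers summed to 458.8 to 493 CPM in CRmm and 288.8 to 311.4 CPM in CRfed, and 5 of 14 rose, with a median of 0.53. Ehd3 was at 99.1, 95.8 and 83.9 CPM in the missed-meal livers, against 36.9, 45.4 and 39.9 CPM in the fed livers (1.19 ± 0.23, adjusted p = 0.00106) and was called in each of the 6 fits. Clec4g (1.02 ± 0.29, adjusted p = 0.0201) was lost without CRmm 3 or CRfed 2 (adjusted p up to 0.0946), Bmp2 (0.95 ± 0.28, adjusted p = 0.0251) without CRmm 1, CRmm 2, CRmm 3, CRfed 2 or CRfed 3 (adjusted p up to 0.0852) and Oit3 (1.09 ± 0.33, adjusted p = 0.0265) without CRmm 1, CRmm 2, CRfed 1, CRfed 2 or CRfed 3 (adjusted p up to 0.117). Between 1 and 3 of the list were called when single libraries were left out.

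Of 12 stellate cell and collagen genes 3 rose and 1 fell, with a median of -0.10. Among all tested genes, 6.34% rose and 6.13% fell. Hgf, the hepatocyte growth factor, was at 8.37, 11.8 and 16.1 CPM in CRmm, against 3.23, 3.91 and 2.87 CPM in CRfed (1.86 ± 0.43, adjusted p = 0.005) and was called in each of the 6 fits. Dcn (0.76 ± 0.20, adjusted p = 0.0115; lost without CRmm 3 (adjusted p up to 0.0833)) and Rgs5 (0.87 ± 0.29, adjusted p = 0.0434; lost without CRmm 1, CRmm 2, CRmm 3, CRfed 1 or CRfed 2 (adjusted p up to 0.159)) were the other rises. Des, which muscle shares, was at 5.25, 4.96 and 6.42 CPM in CRmm, against 21.3, 13.7 and 5.69 CPM in CRfed. It was high in CRfed 1 and CRfed 2 (-1.29 ± 0.42, adjusted p = 0.0382). The call of Des was lost without CRmm 1, CRmm 2, CRmm 3, CRfed 1 or CRfed 2 (adjusted p up to 0.291), and its adjusted p with the replicate block was 0.0884.

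Of 7 erythroid markers 5 rose, with a median of 2.40. Hbb-bs, a beta-globin, was at 4621, 1892 and 6153 CPM in the missed-meal livers, against 780.5, 285 and 659 CPM in the fed livers (2.88 ± 0.90, adjusted p = 0.0328). The call of Hbb-bs was lost without CRmm 1, CRmm 3, CRfed 1, CRfed 2 or CRfed 3 (adjusted p up to 0.121). Hba-a1 (2.40 ± 0.75, adjusted p = 0.0331) was lost without CRmm 1, CRmm 3, CRfed 1, CRfed 2 or CRfed 3 (adjusted p up to 0.139). Slc4a1, the red cell anion exchanger, was at 0.875, 1.84 and 3.94 CPM after the missed meal, against 0.108, 0.043 and 0.182 CPM with the meal (4.27 ± 1.01, adjusted p = 0.006). Alas2, which makes haem in red cell precursors, was at 93.5, 55.0 and 164 CPM in CRmm, against 26.6, 20.8 and 27.9 CPM in CRfed (2.05 ± 0.57, adjusted p = 0.0167). The call of Alas2 was lost without CRmm 3, CRfed 1 or CRfed 2 (adjusted p up to 0.123). The part of blood left in the tissue in any result was not tested. Hepatocyte, Kupffer cell, cholangiocyte, lymphocyte and neutrophil markers gave no call with edgeR or limma; DESeq2 called 1 of 11 lymphocyte markers higher. At an unadjusted p under 0.05, 1 hepatocyte and 1 lymphocyte marker were higher and 1 neutrophil marker was lower. Cfd, an adipocyte gene, was at 0.0547, 0 and 0 CPM in CRmm, against 20.9, 0.129 and 0 CPM in CRfed with the fed value held by CRfed 1 alone (-8.30 ± 2.22, adjusted p = 0.0152; lost without CRmm 2, CRmm 3 or CRfed 1 (adjusted p up to 0.0784)); 1 count in CRmm stood against 585 in CRfed.

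To ask whether the missed meal under restriction acted like a fast in freely fed mice, each gene's change was set against the change of F over AL livers at 14 h and at 22 h. The hours are those of the labels, which do not say from which event they count, and no library is shared between the 2 effects. The F and AL groups carry no zeitgeber time, so the 2 effects may differ in clock time. Nr1d1 averaged 3.43 CPM in CRfed, 151 in AL at 14 h, 16.9 at 22 h and 2.35 at 6 h. Arntl averaged 18.3, 3.80, 12.4 and 25.7 CPM in these groups. The part of clock time in this comparison was not tested. The 6 h fast of the series was not part of this test. Across the 13786 genes the missed-meal effect correlated with the fasting effect at r = 0.378 (14 h) and r = 0.366 (22 h), as a description over genes, which are not independent. Of the 1719 called genes 1320 (76.8%) had a fasting effect of the same sign at 14 h and 1401 (81.5%) at 22 h, against 61.3% and 62.2% of all tested genes.

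The difference between the 2 effects passed the test for 772 genes at 14 h (5.6% of those tested), of which 428 (3.1% of those tested) were more positive after the missed meal and 344 (2.5%) more negative. At 22 h it passed for 122 genes (0.885%), of which 58 (0.421%) were more positive and 64 (0.464%) more negative. These counts depended on single libraries, from 250 without CRfed 2 to 859 without CRfed 3 at 14 h and from 16 without CRfed 2 to 218 without CRfed 3 at 22 h. For Plin2 the fasting effect was 1.98 ± 0.27 at 14 h and 1.60 ± 0.26 at 22 h, beside 1.87 ± 0.27 for the missed meal, and for Srebf1 it was -2.97 ± 0.41 and -3.43 ± 0.42, beside -4.02 ± 0.43.

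Some genes of fat synthesis fell further with the missed meal than with the fast at 14 h or 22 h. Acaca had a fasting effect of -0.32 ± 0.26 at 14 h and -0.39 ± 0.26 at 22 h, beside -2.15 ± 0.27 for the missed meal, and the difference was -1.83 ± 0.37 at 14 h (adjusted p = 0.0067) and -1.76 ± 0.37 at 22 h (adjusted p = 0.0207). Fasn differed at 14 h, by -2.53 ± 0.67 (adjusted p = 0.0237). At 22 h its difference of -2.04 ± 0.66 did not pass (adjusted p = 0.12). The reference levels differed as well: Fasn averaged 1195 CPM in CRfed, 424 in AL at 14 h and 603 in AL at 22 h. Acaca averaged 132, 74.5 and 71.7 CPM there. In CRmm and in F at 14 h and 22 h, Fasn averaged 70.8, 145 and 147 CPM. Acaca averaged 29.8, 59.7 and 54.6 CPM in those groups. At 6 h Fasn averaged 146 CPM in F, against 1121 in AL, and Acaca 59.1, against 144. The part of the reference levels was not tested. In cholesterol synthesis 4 of 21 genes had a more positive effect after the missed meal than after the 14 h fast, among them Fdps, whose fasting effect was -3.98 ± 0.43 (difference 1.93 ± 0.54, adjusted p = 0.0327). At 22 h edgeR and limma called 0 of the 21 different and DESeq2 called 1, with 3 more positive at an unadjusted p under 0.05 by edgeR. The difference of Fdps was then 0.90 ± 0.54 (adjusted p = 0.423).

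Gabarapl1 rose after the missed meal but had fasting effects of -0.08 ± 0.22 at 14 h and 0.07 ± 0.22 at 22 h, and both differences passed (adjusted p = 0.0021 and 0.00836). Actb and Actg1 fell by 2.00 and 2.85 after the missed meal, and their fasting effects were -0.24 ± 0.26 and 0.37 ± 0.30 at 14 h; both differences passed at 14 h and at 22 h. Utp20 fell after the missed meal and had fasting effects of 0.64 ± 0.23 and 0.62 ± 0.23, differences that passed at both times (adjusted p = 0.0067 and 0.0165). The reference levels differed too: Gabarapl1 averaged 153 CPM in CRfed, 343 in AL at 14 h and 210 in AL at 22 h. In CRmm and in F at 14 h and 22 h it averaged 527, 326 and 220 CPM. Actg1 averaged 659, 140 and 328 CPM in CRfed and AL, and 91.2, 181.5 and 212 CPM in CRmm and F. Utp20 averaged 14.6, 9.82 and 12.6 CPM in CRfed and AL, and 7.36, 15.3 and 19.4 CPM in CRmm and F. The part of the reference levels and of the muscle and erythroid transcripts in these differences was not tested. At 6 h Gabarapl1 was at 445.5 to 464.2 CPM in F, against 163.4 to 171.3 CPM in AL. Actb was then at 272 to 279.8 CPM in F, against 605.1 to 894.2 CPM in AL. Actg1 was at 92.4 to 159.9 CPM in F, against 255.2 to 336.4 CPM in AL. Utp20 overlapped between F and AL at 6 h. Gabarapl1 was thus higher and the actins lower in the livers fasted for 6 h too. The 6 h values were not tested. Cyp2c70 fell less after the missed meal than after the 22 h fast (-3.75 ± 0.38; difference 2.28 ± 0.48, adjusted p = 0.0207). At 14 h its difference of 0.61 ± 0.48 did not pass (adjusted p = 0.477).

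**Figure D5:**
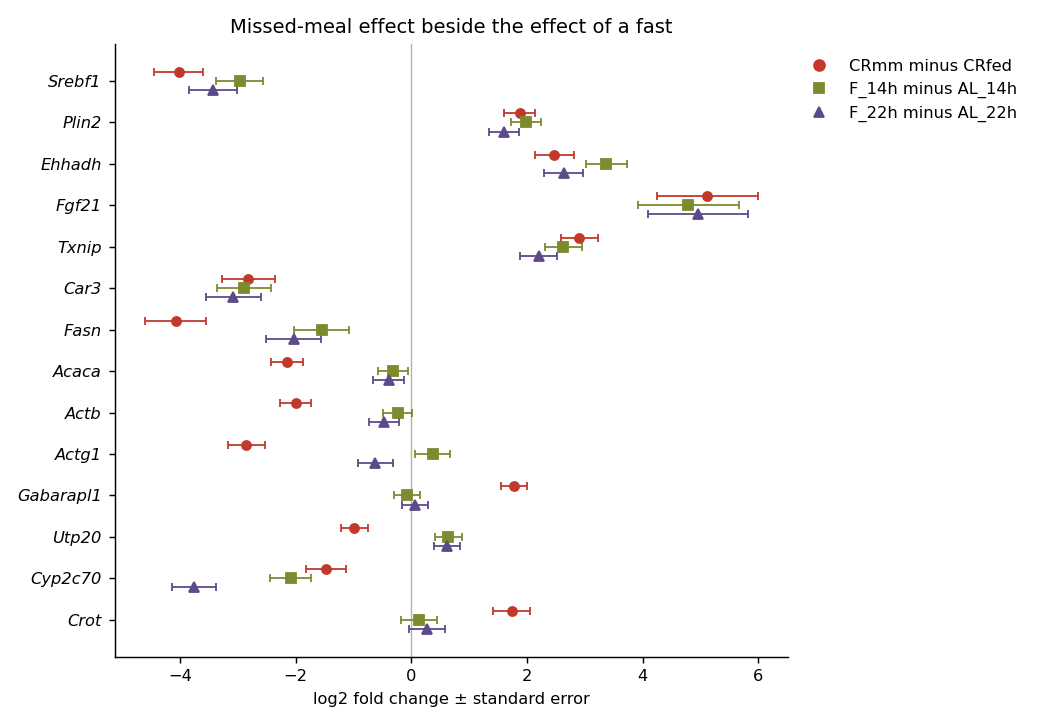
Log2 fold change with its standard error for 14 genes: CRmm minus CRfed (red circles), F_14h minus AL_14h (green squares) and F_22h minus AL_22h (purple triangles). For Srebf1, Plin2, Ehhadh, Fgf21, Txnip and Car3 the 3 effects have the same sign, whereas Actb, Actg1, Gabarapl1 and Acaca have a missed-meal effect of at least 1.78 in size beside fasting effects of at most 0.63 in size.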

How the data were processed

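Per the labels' protocols, RNA from 30 mg of female mouse liver was made into non-directional poly(A) libraries and sequenced as 150 bp read pairs. The authors mapped reads to mouse protein-coding genes of GRCm38 with Bowtie at up to 2 mismatches and estimated the deposited expected counts with RSEM 1.2.3. Their second deposited table, used for alternatives alone, is a signal, TPM values rescaled with EBSeq against a possible batch effect, and the labels name no batch.

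The expected counts of 21954 genes were rounded to whole numbers. Totals ran from 17131292 to 30152277 in the 38 libraries. A single model held them all, with 13 group terms (edgeR 4.0.16 under R 4.3.3; filterByExpr, 13786 genes; TMM; quasi-likelihood F test; Benjamini-Hochberg over all tested genes within each comparison). Standard errors come from the fold change and its F statistic. They cover the spread between libraries, and the floor of 3 counts over a group covers counting error only. Reads of close paralogs may be shared, and overlapping genes of opposite strand cannot be separated without strand information. A total of 26 gene symbols had turned into dates and were restored from the transcript column, 19 entries carried 2 Ensembl identifiers, 21855 genes (99.5%) matched GENCODE coordinates, and 4 list genes were not found by symbol.

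Named are the 12 genes furthest up and the 12 furthest down among those called, averaging 5 CPM or more in CRmm or CRfed, without overlap between the groups and without unnamed gene models and Mup genes, 25 anchor genes, and up to 4 called members of each of 46 lists by smallest p; genes named beyond this are marked, and some genes that the rule chose are not reported here. The lists were written, and the members and lists were chosen, with earlier results of these data known. The replicate numbers pair the samples by correlation alone, not by the labels: same-numbered CRmm and CRfed libraries deviated together from their group means (r = 0.144, 0.2 and 0.15). Alternatives were DESeq2 size factors, no count filter beyond 1 read, the replicate block, fits to the 6 libraries, DESeq2 1.42.0, limma 3.58.1 on log2 of the rescaled TPM plus 1 or 0.1, and each of the 6 libraries left out. The steps were tested on simulated data with known changes.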

Additional observations from a re-analysis of the deposited data

Results flagged for a closer look

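The effect of the missed meal differed from that of a fast in freely fed mice by a test of the difference itself for 772 genes at 14 h and 122 genes at 22 h. Among the genes named in the report, the difference (missed-meal effect minus fasting effect, log2) was as follows, each with its standard error and adjusted p from edgeR. Where only 14 h or only 22 h is given, the difference at the other time did not pass the test. The cause was not tested in any of them, nor was the part of clock time or of the reference levels in CRfed and AL. The 6 h fast was not tested against the missed meal.

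In fat metabolism, Fasn differed by -2.53 ± 0.67 at 14 h (adjusted p = 0.0237). Acaca differed by -1.83 ± 0.37 at 14 h (adjusted p = 0.0067) and -1.76 ± 0.37 at 22 h (adjusted p = 0.0207). Both fell further with the missed meal than with the fast at the times given. Fdps fell less, by 1.93 ± 0.54 at 14 h (adjusted p = 0.0327). Crot (1.61 ± 0.44, adjusted p = 0.0292) was more positive after the missed meal than at 14 h of the fast. Crot averaged 264 CPM in CRfed and 704 in AL at 14 h, and 880.5 CPM in CRmm and 770 in F at 14 h. At 6 h Crot averaged 1203 CPM in F, against 434 CPM in AL, which was not tested. Cyp2c70 was more positive after the missed meal than at 22 h of the fast (2.28 ± 0.48, adjusted p = 0.0207).

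The autophagy gene Gabarapl1 was more positive after the missed meal, by 1.86 ± 0.31 at 14 h (adjusted p = 0.0021) and 1.72 ± 0.31 at 22 h (adjusted p = 0.00836). So were Klhl24 (2.54 ± 0.66 at 14 h, adjusted p = 0.0218), Aqp3 (6.97 ± 1.97 at 14 h, adjusted p = 0.035) and the endothelial marker Clec4g (1.63 ± 0.41 at 22 h, adjusted p = 0.0486). Klhl24 averaged 60.3 CPM in CRmm and 59.2 in F at 14 h, and 6.72 CPM in CRfed and 38.4 in AL at 14 h. The fitted value of Aqp3 depends on the prior count, since its fed libraries held none.

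The ribosome factors were more negative after the missed meal. Utp20 differed by -1.62 ± 0.33 at 14 h (adjusted p = 0.0067) and -1.61 ± 0.32 at 22 h (adjusted p = 0.0165). Heatr1 (-1.42 ± 0.32, adjusted p = 0.0109) and Rrp12 (-2.72 ± 0.53, adjusted p = 0.00566) differed at 14 h. The actins were more negative too: Actb by -1.76 ± 0.36 at 14 h (adjusted p = 0.00684) and -1.53 ± 0.36 at 22 h (adjusted p = 0.0416), and Actg1 by -3.23 ± 0.44 at 14 h (adjusted p = 0.000172) and -2.23 ± 0.43 at 22 h (adjusted p = 0.0118). At 14 h the same held for Pik3r1 (-1.24 ± 0.35, adjusted p = 0.0346), Prkag2 (-0.82 ± 0.25, adjusted p = 0.0444) and Srxn1 (-1.58 ± 0.35, adjusted p = 0.00872). It also held for Oasl1 (-2.40 ± 0.64, adjusted p = 0.0252) and Hsp90b1 (-1.63 ± 0.48, adjusted p = 0.0393).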

How the results depend on the processing

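Of the 153 genes that the naming rule chose or that were added to it, none changed direction under another scaling, filter or tool. With single libraries left out, the genes called ran from 471 to 648 higher and from 304 to 604 lower, and the differences from the fast ran from 250 to 859 at 14 h and from 16 to 218 at 22 h; CRfed 3 gave the highest of both, CRfed 2 the lowest. Igf1, with no call, ran from -0.23 to 0.0906 (0.05 without CRmm 1, 0.03 without CRmm 3). Fitting the 6 libraries alone with the replicate block called 1484 higher and 1530 lower. In the 38-library fit the replicate block gave 834 higher and 762 lower, and beyond Ckm, Creld2, Ces1d, Ppp1r3c and Des it ended no call of a named gene. DESeq2 counted 1284 differences from the fast at 14 h and 370 at 22 h, and the fit without the count filter counted 75 at 22 h. A pair of settings was chosen after the data were seen. Without 4 libraries of other groups that clustered with another diet, 1367 genes differed at 14 h and 336 at 22 h. Without CRfed 1 and CRfed 2, which held muscle transcripts, 179 genes were higher, 229 lower, 25 differed at 14 h and 2 at 22 h. That fit has 1 fed library, assumed to vary like the other groups; Dbp (1.07) and Cfd (1.98) turned positive, and 381 of the 1719 calls were shared. Only 3 libraries a group limit what could be detected.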
